A study of Mus musculus with 42 samples.

Results

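The first 3 h of the lipopolysaccharide (LPS) response were followed in wild-type (WT) macrophages by comparing mRNA levels without LPS and after 3 h of it, and by placing beside each response the rate at which the mRNA was lost at 3 h. The comparison used 2 WT groups, LPS 0 h and LPS 3 h without actinomycin D, which hold 6 of the 42 libraries. Genes were included when at least 1 of the 2 groups had 1 or more FPKM (fragments per kilobase of transcript, scaled to the size of the library), which 11837 of 21951 genes did. For each of them the response was the log2 ratio of FPKM + 1 at 3 h over 0 h. A gene is called induced here at a log2 ratio of 1 or more and repressed at -1 or less, so these words name a size of change between 2 pooled values and not the outcome of a test.

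The cells were bone marrow-derived macrophages (BMDMs) of C57BL/6 mice, grown with CSF-1 from the marrow of WT littermates or of ΔM mice aged 7 to 9 weeks. In ΔM mice loxP-flanked Zfp36, the gene of the RNA-binding protein tristetraprolin (TTP), is deleted by Cre driven from the myeloid LysM gene, while the labels write the genotype as TTP-/-. Untreated cells had no LPS, and the others were given LPS at 10 ng/ml, for 3 h or for 6 h. At both LPS times the medium was exchanged for fresh medium with the transcription inhibitor actinomycin D (5 µg/ml) and RNA was taken after 0, 45 and 90 min. Each of the 14 groups had 3 biological replicates. The deposited tables hold 1 FPKM per group and 1 decay slope per gene, genotype and LPS time, so no spread between replicates, no depth per library and no test can be given, and every difference in what follows is a description of pooled values.

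As background, LPS is sensed by Toll-like receptor 4, whose adaptor MyD88 leads to NF-κB and MAP kinase activation, while its adaptor TRIF leads to production of interferon β and through it to the interferon-stimulated genes. Many cytokine mRNAs and mRNAs of signalling inhibitors carry AU-rich elements in the 3′ UTR and are lost quickly. For an mRNA with a short half-life, a change in transcription changes the level within the time of such an experiment, whereas for an mRNA with a long half-life the level changes slowly after transcription stops.

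The macrophage markers were present at both times. Lyz2 had 6936 FPKM at 0 h and 4841 FPKM at 3 h, Cd68 had 4477 and 2939 FPKM, Csf1r had 381 and 273 FPKM, and Adgre1 (F4/80) had 208 and 189 FPKM. Of the 8 macrophage markers only Cd14, the LPS co-receptor, passed the fold limit, with 333 FPKM at 0 h and 1136 FPKM at 3 h. The markers of other cell types were low. Summed over the members found in the table, neutrophil markers had 43.4 FPKM at 0 h and 15.9 FPKM at 3 h, T cell markers had 1.31 and 7.92 FPKM, of which Lck had 0.55 and 7.2 FPKM, natural killer cell markers 0.28 and 0.21 FPKM, dendritic cell markers 0.72 and 2.29 FPKM and stromal markers 6.06 and 5.58 FPKM. The B cell list summed to 97.9 and 47.9 FPKM, nearly all of it Ighm, while Ms4a1 and Pax5 were listed at 0. Among neutrophil markers S100a8 had 6.84 and 0.85 FPKM and S100a9 had 8.34 and 0.74 FPKM. The part of such cells in any response was not tested, and in bulk RNA fewer cells of a type and less RNA per cell cannot be told apart. Zfp36 itself had 118 FPKM at 0 h and 1017 FPKM at 3 h in WT and 5.98 and 16.3 FPKM in ΔM, in the direction of the genotype labels.

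After 3 h of LPS, 873 genes were induced and 1485 were repressed, which is 7.38% and 12.5% of the genes included. The median gene had a log2 ratio of -0.39, that is, FPKM was lower at 3 h for most genes. When ratios were counted from that median, 1271 genes (10.7%) were induced and 622 (5.25%) repressed, so that the share of induced genes among all calls went from 37.0% to 67.1%. FPKM is a share of the sequenced mRNA, and whether the shift reflects the absolute amount of these mRNAs cannot be told from it. Counting from the median added genes to the induced class and kept all 873, and it kept 622 of the 1485 repressed genes. Large responses were mostly upward: 159 genes had a log2 ratio of 3 or more and 47 of 5 or more, against 42 at -3 or less. Induced genes held 2.26% of the summed FPKM at 0 h and 18.2% at 3 h, and repressed genes 5.47% and 1.90%.

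**Figure D1:**
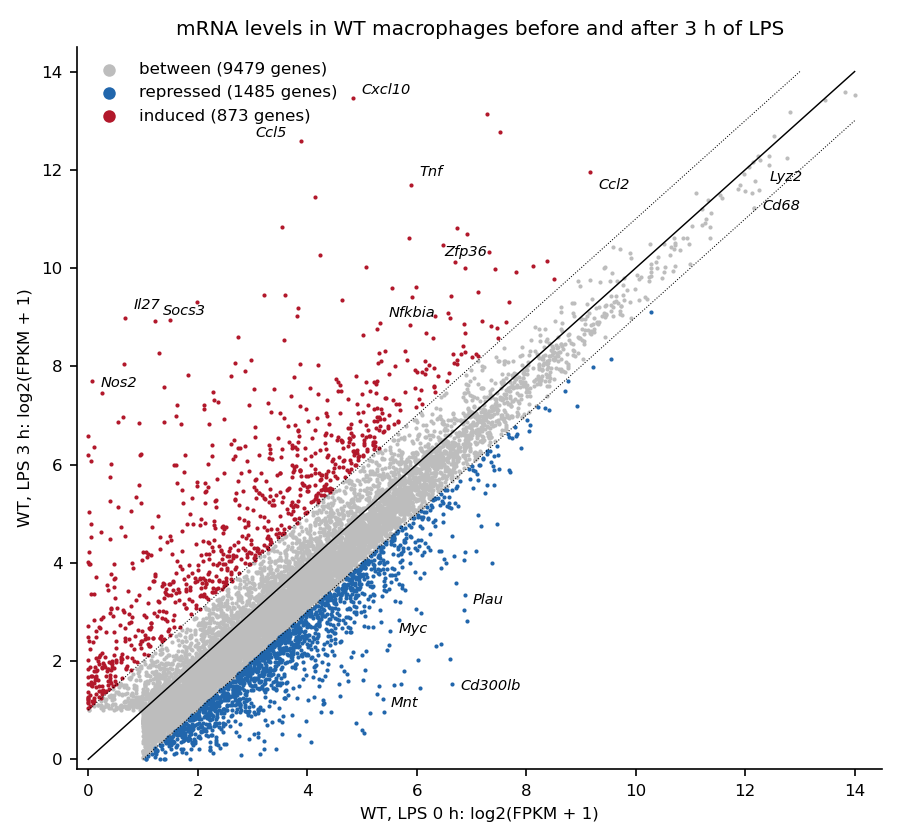
Level of each of 11837 genes in WT macrophages at LPS 0 h (x axis) and LPS 3 h (y axis), both as log2(FPKM + 1) of the pooled group values; the solid line marks equal levels and the dotted lines the fold limits. The 873 induced genes (red) reach far from the diagonal, up to Cxcl10 at 11244 FPKM, while most of the 1485 repressed genes (blue) lie close to the lower limit.

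Just inside the upper limit stood Hivep1 with 13 FPKM at 0 h and 27.1 FPKM at 3 h, and just outside it Zfp513 with 19.5 and 39.9 FPKM. At the lower limit Klhl36, with 2.0 and 0.50 FPKM, was inside and Rabl6, with 44.7 and 21.9 FPKM, was outside. For inclusion the limit lay between Nuak1 (1.0 FPKM at 0 h, 0.38 at 3 h) and Krtcap3 (0.56 and 0.99 FPKM). Of the induced genes 189 had under 1 FPKM at 0 h and 17 were listed at 0, and since 1 is added to each value the log2 ratio understates the change of such genes.

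Inflammatory cytokines showed some of the largest inductions. Of 20 included members of the list, 16 were induced and none repressed, with a median log2 ratio of 4.1. Tnf, encoding the cytokine TNF, had 58.5 FPKM at 0 h, 3322 FPKM at 3 h and 940 FPKM at 6 h. Il27, encoding the p28 subunit of interleukin-27, went from 0.60 to 508 FPKM at 3 h, one of the steepest changes of any gene, and had 394 FPKM at 6 h. Il6 and Il12b were listed at 0 without LPS and had 72.5 and 94.4 FPKM at 3 h. The growth factor Csf1 had 5.13 and 222 FPKM and the vasoconstrictor peptide gene Edn1 0.04 and 66.0 FPKM. Ifnb1, encoding interferon β, had 0.04 FPKM at 0 h, 26.5 FPKM at 3 h and 0.75 FPKM at 6 h, a peak confined to the middle one of the 3 sampled times. The anti-inflammatory Il10 had 2.39, 71.8 and 129 FPKM at 0, 3 and 6 h, and so was still higher at 6 h. Tgfb1, with 875 FPKM at 0 h and 806 FPKM at 3 h, and Osm, with 2.0 and 1.55 FPKM, were below 0 on the log2 scale and above 0 when counted from the median.

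Chemokine mRNAs were the most abundant induced transcripts. Of 12 CC chemokines 10 were induced and of 11 CXC and CX3C chemokines 7 were, with median log2 ratios of 3.29 and 4.76, and the summed level of the CC list went from 1719 to 28306 FPKM. Ccl5 (RANTES), which draws T cells, had the largest log2 ratio of any gene with at least 10 FPKM, with 13.8 FPKM at 0 h, 6175 at 3 h and 14902 at 6 h. Cxcl10, a ligand of CXCR3, followed with 27.7, 11244 and 10272 FPKM. Ccl4 had 156, 9008 and 4422 FPKM, Ccl3 183, 6938 and 4184 FPKM and Ccl2, which draws monocytes, 577, 3955 and 4874 FPKM. The neutrophil-attracting Cxcl1, Cxcl2 and Cxcl3 behaved differently from these over time. Cxcl1 had 2.98 FPKM at 0 h, 629 FPKM at 3 h and 24.3 FPKM at 6 h, Cxcl2 had 57.0, 1564 and 179 FPKM and Cxcl3 had 5.62, 385 and 35.3 FPKM, so all 3 were above 0 h and far below their 3 h level at 6 h. Ccl6 (350 and 248 FPKM) and Pf4 (395 and 351 FPKM) stayed within the fold limits.

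Promoter windows with sequences by which NF-κB and interferon-activated factors are known to act are shown. They come from among the most induced genes that hold such a match, and not all of those are printed. Induced genes without a match were passed over. The windows come from RefSeq on GRCm38.p6, run from 250 bases before to 50 bases after each annotated start, and were found for 8536 of the 11837 genes. Searched on both strands, the letters GGG, any 3 bases and then TTCC, a form of the κB motif, were in 5.56% of all 32851 windows of the table. The letters GAAA, any 2 bases and again GAAA, a form of the interferon-stimulated response element (ISRE), were in 3.44%. Each line gives a 30-base stretch around the match on the gene's strand, with the match in capitals. The first 4 hold the κB letters and the others the ISRE letters, which read TTTC, 2 bases and TTTC when the match is on the opposite strand.
Cxcl10, chr5:92349029-92349058, minus strand: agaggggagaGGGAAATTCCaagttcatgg
Cxcl1, chr5:90891164-90891193, plus strand: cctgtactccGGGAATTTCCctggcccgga
Il6, chr5:30013060-30013089, plus strand: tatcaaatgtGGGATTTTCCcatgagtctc
Cxcl3, chr5:90786018-90786047, plus strand: gagctgcgggGGGAATTTCCccagcccggg
Cxcl10, chr5:92349083-92349112, minus strand: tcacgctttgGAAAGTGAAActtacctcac
Gbp2b, chr3:142594700-142594729, plus strand: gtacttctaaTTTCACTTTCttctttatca
Rsad2, chr12:26456553-26456582, minus strand: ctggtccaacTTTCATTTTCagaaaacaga
Ifit1, chr19:34640794-34640823, plus strand: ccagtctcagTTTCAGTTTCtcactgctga
The κB match began 44 bases before the start in Il6, 71 in Cxcl1 and 73 in Cxcl3. Cxcl10 held both motifs, at 159 bases (κB) and 213 bases (ISRE) before its start. Socs1, with a log2 ratio of 7.43, also held the ISRE letters, 83 bases before its start, and is not printed. Of the 873 induced genes 661 had a window, and of these 10.6% held the κB letters and 11.6% the ISRE letters. Among the 124 of them with a log2 ratio of 3 or more, 20 (16.1%) held the κB and 25 (20.2%) the ISRE letters. For all included genes with a window the shares were 7.36% and 4.12%. Induced genes without a window were not searched, so the shares of the whole class are not known.

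The interferon-stimulated genes moved together and had not returned by 6 h. Of 40 antiviral members 34 were induced and none repressed, with a median log2 ratio of 1.96, and all 13 included guanylate-binding proteins and immunity-related GTPases were induced, with a median of 3.25. At 6 h all 34 and all 13 were still at a log2 ratio of 1 or more over 0 h. Rsad2 (viperin), which blocks viral replication, had 10.7 FPKM at 0 h, 1814 at 3 h and 2579 at 6 h. Ifit1, which binds foreign RNA ends, had 8.22, 698 and 814 FPKM, and Oasl1 17.7, 1233 and 1121 FPKM. Mx1, an antiviral GTPase, had 2.06, 148 and 318 FPKM. Gbp2b had 0.58, 265 and 331 FPKM and Gbp2, whose sequence it resembles, 3.83, 177 and 472 FPKM, and reads of such near-identical family members may have been divided between them. Ifi27 (25.1 and 19.1 FPKM) was the list's only member with a log2 ratio below 0, at -0.38, and it was above 0 when counted from the median. Several neighbours overlap on the genome, Cxcl10 with Art3, Ifit1 with Gm14446 and Ccl3 with Ccl4, and how the counting used the strand is not given in the sources used here.

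Of 24 subunits and adaptors of the NF-κB pathway 13 were induced, 11 stayed within the limits and none was repressed. The TNF receptor family member Cd40 had 13.1 FPKM at 0 h, 517 at 3 h and 811 at 6 h, the kinase genes Ripk2 5.82, 80.0 and 37.0 FPKM and Map3k8 5.25, 67.9 and 50.1 FPKM, and the subunit gene Nfkb2 11.6, 110 and 54.5 FPKM. Irak4, with 25.9 and 14.01 FPKM, had the lowest log2 ratio, -0.84.

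Inhibitors of the same pathways were among the most induced genes. Of 29 feedback inhibitors 19 were induced and 4 repressed, with a median log2 ratio of 2.35. Socs3, which blocks JAK-STAT signalling from gp130 receptors, had 1.33 FPKM at 0 h, 485 at 3 h and 418 at 6 h. Socs1, which blocks interferon signalling, had 1.83, 488 and 159 FPKM. Tnfaip3 (A20), a ubiquitin-editing inhibitor of NF-κB, had 10.9, 372 and 228 FPKM, and Nfkbia (IκBα), which holds NF-κB in the cytoplasm, 39.2, 468 and 367 FPKM. Cish, a further member of the SOCS family, had 0.56, 124 and 3.97 FPKM, and it overlaps the gene model Gm17041, so that its reads may be shared. The 4 repressed members were Dusp6 (37.9 and 1.5 FPKM), Dusp4 (18.8 and 1.21 FPKM), Trib1 (6.93 and 1.81 FPKM) and Spry2 (3.84 and 1.11 FPKM). Dusp6, Dusp4 and Spry2 are known as inhibitors of ERK signalling. Other members of the Dusp family were induced, among them Dusp1 (44.2 and 229 FPKM) and Dusp2 (0.91 and 114 FPKM). Whether the direction goes with the pathway inhibited was not tested. The repressed share of the list was close to the 12.5% of all included genes. Counted from the median, 3 of the 4 remained repressed, a share of the list above the 5.25% of all included genes.

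Of the 29 members 26 had a promoter window, and in 6 of these genes (23.1%) a window held the κB letters, against 7.36% of all included genes with a window. Matches of 4 induced inhibitors are printed to set beside those of the chemokines, again in GRCm38.p6 and on the gene's strand, where GGAA, 3 bases and CCC stand for a match on the opposite strand.
Tnfaip3, chr10:19015361-19015390, minus strand: aaaggcaaaaaagGGAACTGCCCagtctgt
Nfkbia, chr12:55492657-55492686, minus strand: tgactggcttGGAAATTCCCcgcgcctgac
Nfkbie, chr17:45555584-45555613, plus strand: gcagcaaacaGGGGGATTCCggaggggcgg
Tnip1, chr11:54962979-54963008, minus strand: ctccatcatgGGGGAATTCCcctcctgcct
A match is a description of the letters in the window and no evidence of binding there.

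Transcription factors of the immediate early and AP-1 class were split. Of 33 included, 11 were induced and 7 repressed (13 and 3 when counted from the median), and the median log2 ratio, -0.26, became positive when counted from the median of all genes. Batf2 had 5.41 FPKM at 0 h and 268 FPKM at 3 h, Junb 13.4 and 94.2 FPKM and Batf 7.66 and 72.1 FPKM. In the opposite direction went Myc, with 80.9 FPKM at 0 h, 3.95 at 3 h and 8.78 at 6 h, Klf10 with 23.2, 1.45 and 1.85 FPKM and Klf2 with 15.2, 3.37 and 5.16 FPKM. The classical first-wave factors were near or below their unstimulated level at 3 h: Fos had 45.1 and 22.1 FPKM, Jun 37.5 and 24.95 FPKM and Egr1 3.99 and 2.31 FPKM. Of the interferon regulatory and STAT list, 6 of 17 were induced, led by Irf1 with 23.95 FPKM at 0 h, 651 at 3 h and 240 at 6 h.

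**Figure D2:**
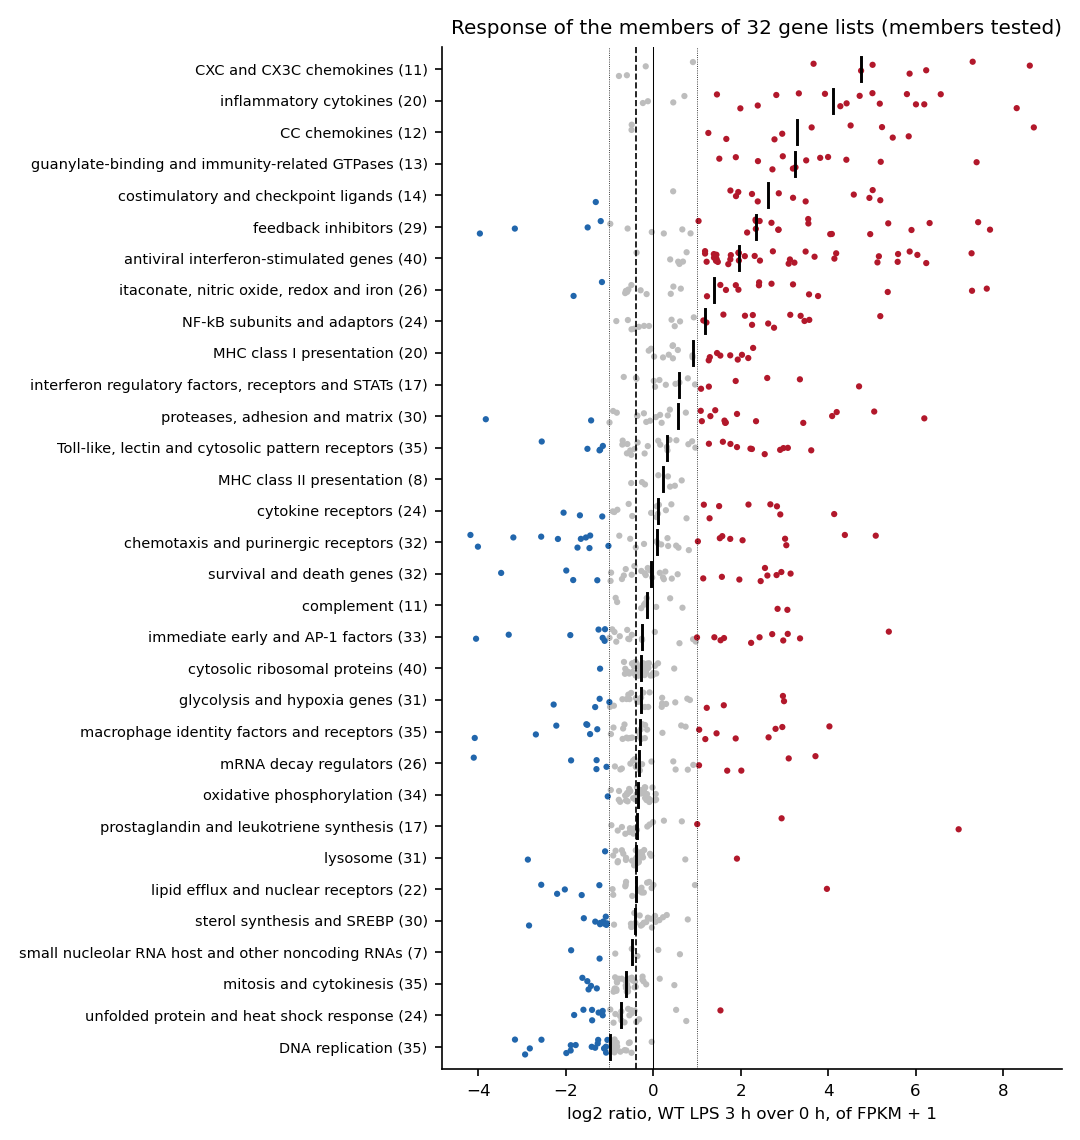
Log2 ratio of FPKM + 1, WT LPS 3 h over 0 h, of each included member of 32 gene lists (points: red induced, blue repressed, grey between; the number of members follows each name), with black bars for list medians, dotted lines at the fold limits and a dashed line at the median of all genes, -0.39. Chemokines and cytokines lie furthest to the right with medians of 3.29 to 4.76, and DNA replication furthest to the left with a median of -0.98.

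Among surface molecules, ligands for T cells rose. Of 14 costimulatory and checkpoint ligands 12 were induced and 1 repressed (none when counted from the median). Cd274 (PD-L1) had 3.90, 158 and 315 FPKM at 0, 3 and 6 h, and the adhesion molecule gene Icam1 32.8, 1041 and 363 FPKM. Havcr2 (TIM-3) was the repressed member, with 11.2 FPKM at 0 h and 3.90 FPKM at 3 h. Receptors went both ways. Of 35 pattern receptors 11 were induced, among them Tlr2 (28.8 and 222 FPKM) and the lectin receptor gene Clec4e (31.5 and 397 FPKM), and 5 were repressed, among them Tlr13 (101 and 16.5 FPKM) and the LPS receptor itself, Tlr4 (35.6 and 14.8 FPKM). The repressed share of the pattern receptors was close to the 12.5% of all included genes. Counted from the median 2 were repressed and Tlr4, at a log2 ratio of -1.21, was not among them. Of 32 chemotaxis and purinergic receptors 9 were induced and 11 repressed. The sphingosine 1-phosphate receptor gene S1pr1 had 51.5, 1.90 and 1.23 FPKM, Cxcr4, the receptor of CXCL12, 64.4, 3.07 and 0.53 FPKM, and the oxysterol receptor gene Gpr183 14.7, 0.71 and 0.50 FPKM. On the other side stood the atypical chemokine receptor gene Ccrl2, with 3.33, 147 and 107 FPKM, and the adenosine receptor gene Adora2a, with 0.18, 23.6 and 16.3 FPKM. When counted from the median, 10 of these 11 receptors were repressed.

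Several enzymes and secreted proteins known from activated macrophages were induced. In the list on itaconate, nitric oxide, redox and iron 14 of 26 were induced and 2 repressed. Nos2, the inducible nitric oxide synthase, had 0.05 FPKM at 0 h, 207 at 3 h and 1396 at 6 h, and Irg1 (also named Acod1), which makes itaconate, 16.8, 2782 and 3607 FPKM. The activation marker gene Cd69 had 0.19, 174 and 124 FPKM. Ptgs2 (COX-2), the first enzyme of prostaglandin synthesis, had 1.45, 310 and 469 FPKM. The acute-phase gene Saa3 had 13.2, 583 and 3582 FPKM. The repressed members were the iron exporter gene Slc40a1 (9.09 and 1.86 FPKM) and Hmox1, heme oxygenase 1, with a log2 ratio of -1.17, which was within the limits when counted from the median. Of 20 genes of MHC class I presentation 9 were induced and none repressed, led by H2-Q7 (4.42 and 25.4 FPKM) and H2-Q6 (3.91 and 21.2 FPKM), whose reads could be divided between such similar genes. Of 8 MHC class II genes none passed a limit in either direction, with H2-Ab1 highest at a log2 ratio of 0.65. Among proteases and matrix genes 14 of 30 were induced and 2 repressed. Among these Mmp13, a collagenase gene, rose from 6.24 to 240 FPKM, while Plau, which encodes the urokinase activator, fell from 115 to 7.2 FPKM and stood at 1.48 FPKM at 6 h.

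The largest falls included receptors and transcription factors of the unstimulated cell. Among genes with at least 10 FPKM at 0 or 3 h the lowest log2 ratio, -5.12, was that of Cd300lb, a receptor gene of myeloid cells, with 99.5 FPKM at 0 h, 1.89 at 3 h and 7.71 at 6 h, although its symbol is shared by 2 identifiers. Mnt, a partner of MAX that opposes MYC, followed with 65.8, 1.72 and 3.40 FPKM. Then came Lhfpl2 (96.9, 3.12 and 9.73 FPKM), 1700017B05Rik (31.95, 0.45 and 1.60 FPKM), Cdca7 (41.3, 0.96 and 0.24 FPKM) and Lyl1 (30.9, 0.51 and 1.53 FPKM), a transcription factor of blood cells. The next were Gm26532, S1pr1, Tmem86a, Irf2bp2 and Zfp36l2, with log2 ratios between -4.21 and -4.1. Macrophage identity factors among the repressed were Cebpa (10.2, 0.74 and 0.31 FPKM) and Fli1 (log2 ratio -2.21), and Cebpd (12.5, 220 and 148 FPKM) was induced.

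The TTP family itself split by member. Zfp36 was induced (log2 ratio 3.10), while Zfp36l2, with 119 FPKM at 0 h, 6.01 at 3 h and 5.98 at 6 h, and Zfp36l1, with 72.7, 19.1 and 13.6 FPKM, were repressed under both ways of counting. At 0 h the 3 mRNAs thus lay between 72.7 and 119 FPKM, and at 3 h between 6.01 and 1017 FPKM. Of the 26 mRNA decay regulators listed 5 were induced and 5 repressed. Zc3h12a (Regnase-1), an endonuclease for cytokine mRNAs, had 7.26, 107 and 121 FPKM.

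Lists with more repressed than induced members included those of proliferation, lipid synthesis and protein folding, which hold a small part of the 1485 repressed genes. Of 35 DNA replication genes 17 were repressed and none induced, with a median log2 ratio of -0.98, and 9 were repressed when counted from the median. The licensing factor genes Cdt1 (62.3, 7.32 and 7.76 FPKM at 0, 3 and 6 h) and Cdc6 (12.3, 0.88 and 0.54 FPKM), the transcription factor gene E2f2 (18.5, 1.18 and 0.81 FPKM) and the cyclin gene Ccne2 (30.4, 6.94 and 2.19 FPKM) fell furthest together with Ung. Of 35 genes of mitosis and cytokinesis 5 were repressed (4 when counted from the median) and none induced, with a median of -0.62. The repressed share was close to the 12.5% of all included genes, but when counted from the median it lay above their 5.25%. Among the repressed were Kif23 (8.36, 2.05 and 1.23 FPKM) and Bub1b (29.7, 10.0 and 4.28 FPKM). Of 30 genes of sterol and fatty acid synthesis 10 were repressed, but only 2 when counted from the median. Scd2, a stearoyl-CoA desaturase, had the largest fall, from 134 to 17.9 FPKM, followed by Dhcr7 (79.3 and 25.8 FPKM) and Fasn (73.2 and 28.7 FPKM). Of the nuclear receptor and lipid efflux list 5 of 22 were repressed (4 when counted from the median), namely Nr1d1, Rara, Rxra, Pparg and Mylip, and Ch25h, which makes 25-hydroxycholesterol, was induced from 8.70 to 151 FPKM. In the unfolded protein and heat shock list 7 of 24 were repressed (4 when counted from the median) and 1 induced, with the chaperone gene Hspa8 going from 744 to 282 FPKM. The housekeeping lists lay within the limits apart from single genes: 1 of 40 ribosomal protein genes and 1 of 34 genes of oxidative phosphorylation, Ndufa1, were repressed, and neither was when counted from the median.

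The letters TTTNNCGC, a form of the E2F motif, were in a window of 13 of the 28 DNA replication genes that had one (46.4%), against 10.1% of all included genes with a window and 5.17% of all windows in the table. The match of 4 repressed genes is printed in the same form, where GCG, 2 bases and AAA stand for the opposite strand.
E2f2, chr4:136172267-136172296, plus strand: gaggcgcggcaTTTTCCGCgggagatccga
Cdt1, chr8:122568035-122568064, plus strand: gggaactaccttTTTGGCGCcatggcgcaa
Cdc6, chr11:98908002-98908031, plus strand: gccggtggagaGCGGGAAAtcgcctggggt
Uhrf1, chr17:56303270-56303299, plus strand: gccccacttgcTTTCTCGCttcccgccaca
In E2f2 and Cdt1 the match lies within 50 bases after the annotated start, and in Uhrf1 and Cdc6 it begins 56 and 138 bases before it.

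A decay rate of WT cells at LPS 3 h was deposited for 11429 of the 11837 genes. The rate is the slope of log2 FPKM over the 0, 45 and 90 min of actinomycin D, the half-life is -1 divided by it, and an mRNA is called unstable here below 180 min, from where the authors wrote stable. Since FPKM is relative, 44.8% of slopes were above 0, meaning that these mRNAs gained share during the block. Unstable mRNAs made up 22.3% of all included genes, 33.0% of the induced (282 of 855 with a rate), 44.1% of the repressed (604 of 1369) and 18.1% of those in between. The median slope was -0.15 log2 units per h for induced, -0.28 for repressed and -0.04 for all. Below 60 min the order was the other way: 12% of induced, 9.79% of repressed and 5.07% of all mRNAs were this short-lived, and 24 induced (2.81%) but 11 repressed mRNAs (0.80%) were below 30 min.

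The libraries at 3 h without actinomycin D enter both the response and the 3 h slope, so the slopes of WT cells at LPS 6 h, which share no library with the response, are given beside them. With these, 39.3% of the induced and 35.0% of the repressed mRNAs were unstable, against 24% of all included genes, so both classes stayed above the background but their order turned. At 3 h the unstable share was 20.1% for log2 ratios from -1 to -0.5 and 16.3% from -0.5 to 0.5. It was 40.6% from -2 to -1, 67.5% from -3 to -2 and 83.8% at -3 or less, the last over 37 mRNAs. With 6 h slopes the same 3 bins had 34.2%, 37.5% and 54.1%. On the induced side the share was 29.4% from 1 to 2, 41.9% from 2 to 3, 38% from 3 to 4 and 30.4% at 4 or more, and so did not go up steadily. Repressed mRNAs were also low at 3 h, with a median of 3.34 FPKM against 32.7 FPKM for the induced, and slopes of low mRNAs are less certain. Among mRNAs with at least 20 FPKM at 3 h, 32.2% of 509 induced, 25.4% of 126 repressed and 7.78% of 2672 in between were unstable.

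**Figure D3:**
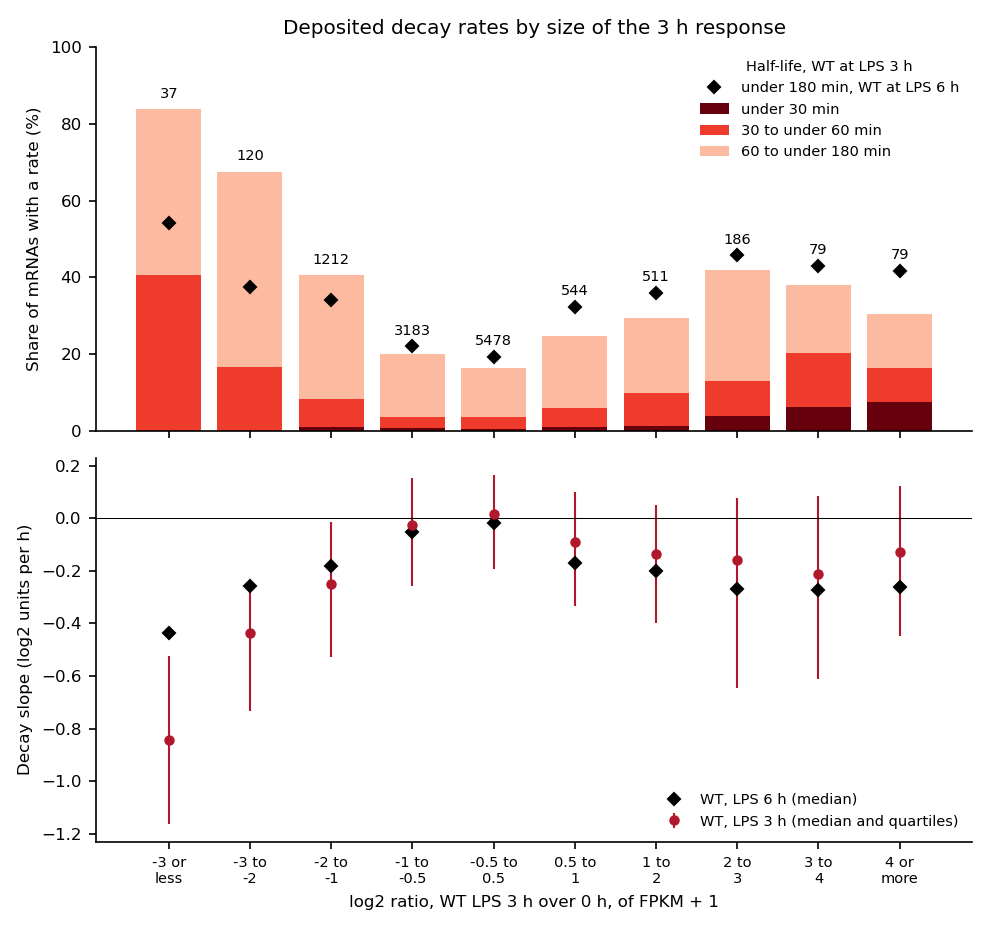
Top: share of mRNAs with a half-life under 30, 60 and 180 min in WT cells at LPS 3 h (stacked bars, % of mRNAs with a rate; their number is above each bar) by log2 ratio of the 3 h response, with black diamonds for the share under 180 min at LPS 6 h. Bottom: median slope with quartiles at 3 h (red) and median at 6 h (black), in log2 units per h. The share of unstable mRNAs is lowest, 16.3%, where levels stayed within 0.5 of no change and higher toward both ends.

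The lists with many induced members differed widely in decay. Counted over all included members, whether they changed or not, 24 of 29 feedback inhibitors had half-lives below 180 min and 11 below 30 min, with a median slope of -1.56 log2 units per h. Of the 19 induced ones 15 were unstable. The shortest half-life of any induced mRNA with at least 10 FPKM at 3 h was that of Dusp2, 11.8 min, followed by Tagap with 15.8 min, Dusp1 with 16.3 min, Nfkbia with 17.0 min, Socs3 with 17.4 min, Socs1 with 18.6 min and Tnfaip3 with 19.3 min. The others of the 12 shortest, Csrnp1, Irf1, Prdm1, Junb and Sertad3, had 21.0 to 25.4 min. All 12 of these were below 30 min at LPS 6 h as well. Immediate early and AP-1 factors were alike, with 29 of 32 members unstable and a median of -1.01, and with 10 of the 11 induced ones unstable. All 4 repressed feedback inhibitors and all 7 repressed immediate early factors were unstable, with Trib1 at 18.1 min, Klf2 at 26.5 min, Myc at 31.3 min and Dusp6 at 38.5 min.

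Most interferon-stimulated and chemokine mRNAs were long-lived, as were most mRNAs. Of all included genes with a rate 22.3% were unstable, and of those with at least 20 FPKM at 3 h 12.2%. The 2 interferon lists lay near the second of these shares. Over all included members with a rate, only 5 of 40 antiviral interferon-stimulated genes, 2 of 13 guanylate-binding and immunity-related GTPases, none of 11 CC chemokines and 1 of 11 CXC and CX3C chemokines were unstable at LPS 3 h, and Cxcl1 with 109 min was that one. Cxcl10 (0.13 log2 units per h), Ccl3 (0.15) and Ccl5 (0.25) had slopes above 0, so no half-life is defined for them. For Ccl4 it was 233 min and for Ccl2 706 min. At LPS 6 h, Cxcl1 had 57.3 min, Cxcl2 84.7 min, Ccl4 79.6 min and Cxcl3 104 min, all shorter than at 3 h. Cytokines were mixed, with 6 of 19 unstable. Edn1 had 32.7 min and Tnf 38.5 min, whereas Il27, Il12b and Il6 had slopes above 0.

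The repressed programs also differed from each other, over few genes each. Of all repressed mRNAs with a rate 44.1% were unstable at LPS 3 h, and of all included genes with a rate 22.3%. The 8 shortest half-lives among repressed mRNAs with at least 10 FPKM at 0 h, 26.5 to 34.4 min, were those of Klf2, Ap5b1, Myc, Foxo3, Ccnf, Klf10, Zscan22 and Repin1, and at LPS 6 h they ranged from 20.7 to 68.6 min. Among repressed chemotaxis and purinergic receptors 7 of 11 were unstable at LPS 3 h, with S1pr1 at 83.3 min, Cxcr4 at 58.7 min and Gpr183 at 35.4 min. Of the 16 repressed DNA replication genes with a rate 4 were unstable, Cdt1 with 56.2 min being the shortest-lived. Of the 10 repressed genes of sterol and fatty acid synthesis 2 were unstable, Fasn with 63.4 min among them. These 2 shares lay near that of all included genes and below that of all repressed mRNAs. Of the 11 genes with the largest falls 9 had half-lives between 44.8 and 159 min, Gm26532 had 354 min and the rate of Cdca7 was not used here because its cell is empty.

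Because half-lives differed so widely among induced mRNAs with AU-rich elements, TTP crosslink sites in the 3′ UTR of 10 of them are printed, taken from the study's list of sites at LPS 3 h. These are the 5 shortest-lived and the 5 most abundant long-lived induced mRNAs among those whose highest-ranked listed site is in the 3′ UTR and holds the pentamer ATTTA, which is in capitals, with at most 30 bases of each site. Coordinates are in mm9, and each stretch matched the NCBIM37 (mm9) genome. The first 5 belong to mRNAs with half-lives of 17.0 to 29.1 min.
Nfkbia, chr12:56590418-56590447, minus strand: ttattttggtacttctaagatgtatATTTA
Socs3, chr11:117827425-117827436, minus strand: gtaATTTAtaat
Tnfaip3, chr10:18721580-18721598, minus strand: tcattctggtttATTTAtt
Irf1, chr11:53590609-53590625, plus strand: ttgcATTTATTTAtata
Ppp1r15a, chr7:52778327-52778356, minus strand: gtagtttcctattATTTATTTATTTATTTA
Cxcl10, chr5:92775884-92775911, minus strand: tgaaaatgtatgtgtaaatactATTTAa
Ccl4, chr11:83478043-83478072, plus strand: tattatttctattATTTAtgttttagttat
Ccl3, chr11:83461550-83461579, minus strand: tggtttaatactATTTAattttgtaATTTA
Ccl2, chr11:81850702-81850724, plus strand: ttaattaatattaaacttATTTA
Cxcl2, chr5:91334353-91334382, plus strand: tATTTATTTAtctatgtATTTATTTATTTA
The printed stretches of the short-lived mRNAs hold 1 to 4 pentamers and those of the long-lived mRNAs 1 to 5. At least 1 pentamer was required, the part of each site with the most was taken, and lengths ran from 12 to 30 bases. With only 5 picked mRNAs on each side, no relation of pentamers to half-life can be read from these stretches.

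Over whole 3′ UTRs the letters TATTTAT, on the transcript's strand of the longest annotated 3′ UTR in GENCODE for NCBIM37, were in 37.4% of 775 induced mRNAs with an annotated UTR, 25.5% of 1347 repressed and 27.7% of 10193 of all. Of the induced mRNAs with a log2 ratio of 3 or more 46.4% held them. Within the induced class the share was 41.3% below 60 min and 36.0% at 180 min or more, against 27.7% of all genes. Within the repressed class the order was the other way, with 24.4% below 60 min and 27.7% at 180 min or more. Transcripts below 60 min had fewer exons, with a median of 5 in induced and 5 in repressed mRNAs against 9 in all included genes.

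The levels at 6 h separated induced mRNAs by their 3 h half-life. Of all 873 induced genes 716 (82.0%) were still at a log2 ratio of 1 or more over 0 h at 6 h, and 486 were higher at 6 than at 3 h. Of the 24 induced mRNAs below 30 min 21 (87.5%) were lower at 6 h than at 3 h. The share was 64.6% of 79 from 30 to under 60 min, 58.7% of 179 from 60 to under 180 min and 34.0% of 573 at 180 min or more. Dusp1 (229 FPKM at 3 h and 486 at 6 h) was among the exceptions with a very short half-life, and Tnfaip2 (1811 and 273 FPKM), with 227 min, among those with a long one. Levels at 3 h enter the slope as well as this comparison. Of the repressed genes 1256 (84.6%) were still at -1 or less at 6 h and 976 were lower at 6 than at 3 h. The median log2 ratio of all included genes was -0.60 at 6 h over 0 h, against -0.39 at 3 h.

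**Figure D4:**
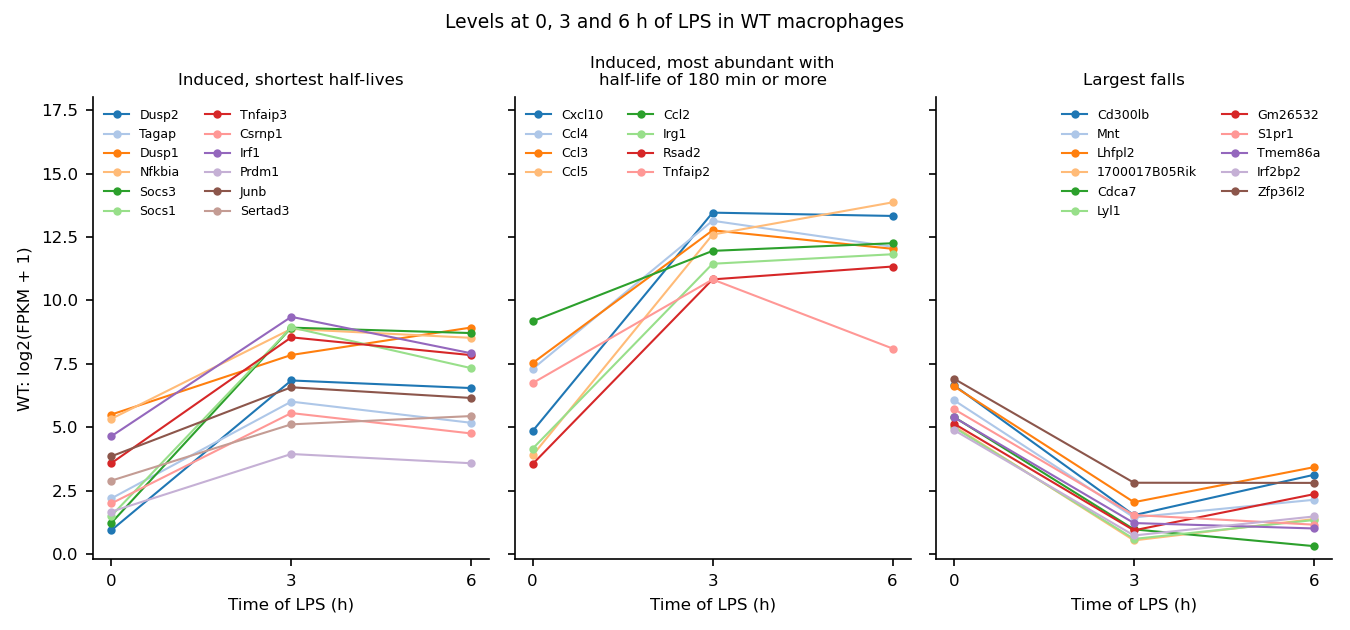
Level of single mRNAs in WT macrophages, as log2(FPKM + 1) of the pooled group values, at 0, 3 and 6 h of LPS (x axis) for the 12 induced mRNAs with the shortest half-lives, the 8 most abundant induced mRNAs with half-lives of 180 min or more and the 11 largest falls. Between 3 and 6 h Tnfaip2 drops from 1811 to 273 FPKM among the long-lived mRNAs, while Lhfpl2, with 3.12 and 9.73 FPKM, stays far below its 0 h level of 96.9 FPKM among the repressed.

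For repressed mRNAs the fall over 3 h was set beside the fall that the measured 3 h slope would give in 180 min if nothing new were made. For these falls 0.01 FPKM was added in place of 1, so they are larger than the log2 ratios given above for the same genes. With at least 10 FPKM at 0 h and 1 FPKM at 3 h, 775 repressed mRNAs had a rate. Their median fall was 1.49 log2 units, and the median fall given by the slope was 0.77 log2 units. The fall was larger than the slope gives for 622 of them (80.3%), and by 1 log2 unit or more for 352 (45.4%). Counted from the median of all genes these were 550 (71.0%) and 139 (17.9%), and with slopes of LPS 6 h 670 (86.5%) fell by more. A fall of about 1 was needed to be counted as repressed, and 464 of the 775 had half-lives of 180 min or more, so a share of this kind follows in part from the choice of genes. Since FPKM is relative, a slope under actinomycin D can also understate the loss of an mRNA while other mRNAs are lost too. Slopes above 0 were taken as no fall. How far this adds to the share above the slope was not tested. Lhfpl2 fell by 4.95 log2 units where its slope gives 1.13, Cd300lb by 5.71 where it gives 2.37 and Plau by 4.0 where it gives 0.80. Cell cycle and lipid genes went both ways. E2f2 fell by 3.96 log2 units against 0.92 from its slope and Scd2 by 2.90 against 0.64, whereas the falls of Cdt1 (3.09 against 3.20), Ccnf (2.95 against 5.62) and Fasn (1.35 against 2.84) were within those of their slopes, as were those of Dusp6 and Myc. The rate before LPS was not measured, so whether these mRNAs were lost at another rate in the first 3 h was not tested.

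**Figure D5:**
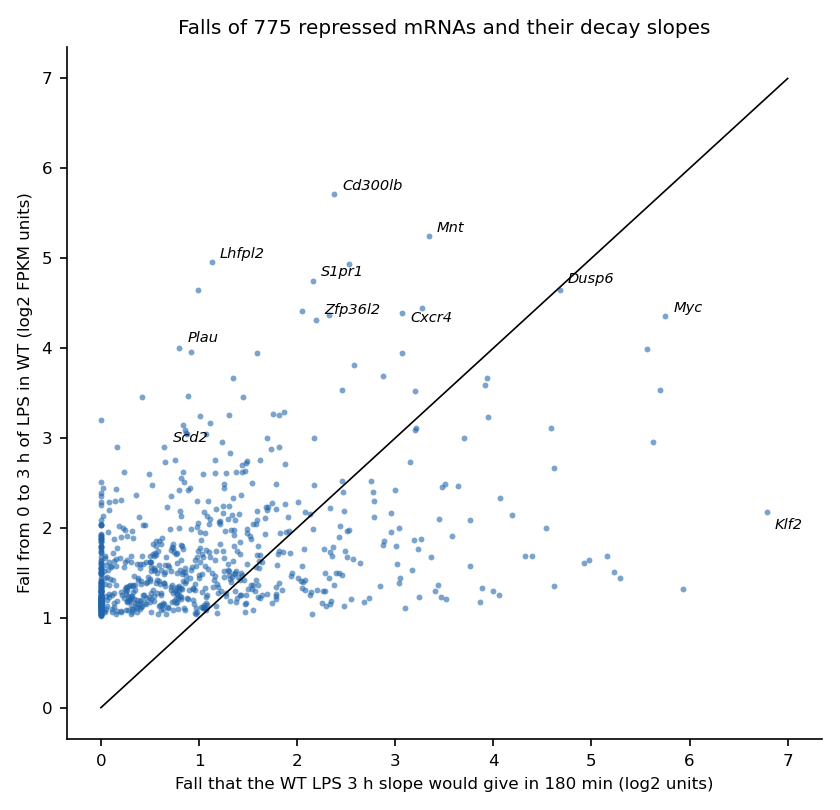
Fall of 775 repressed mRNAs between LPS 0 and 3 h in WT cells (y axis, log2 FPKM units with 0.01 added) against the fall that the WT slope at LPS 3 h would give in 180 min (x axis, log2 units, slopes above 0 placed at 0), with the line of equality. Above the line lie 622 of the points, among them Lhfpl2, Cd300lb and Plau, and Myc and Klf2 lie below it.

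The response of ΔM macrophages, which shares no library with that of WT, had the same direction for nearly all of these genes. Of the 873 genes induced in WT 736 (84.3%) were also induced in ΔM, where 7.18% of all included genes were, and 872 had a ratio above 0. Of the 1485 repressed genes 996 (67.1%) were also repressed in ΔM, where 11.2% of all were, and 1476 had a ratio below 0. No gene was induced in one genotype and repressed in the other among these. The median ratio of all included genes was -0.34 in ΔM. By list, 27 of 40 antiviral interferon-stimulated genes were induced in ΔM against 34 in WT, with medians of 1.53 and 1.96, and all 13 guanylate-binding and immunity-related GTPases were induced in both. Of 20 cytokines 15 and 16 were induced, of 29 feedback inhibitors 19 and 19, and of 35 DNA replication genes 14 and 17 were repressed. Some antiviral genes were already higher in ΔM without LPS. Ifit1 had 28.13 FPKM at 0 h in ΔM against 8.22 in WT, Oasl1 72.53 against 17.73 and Rsad2 23.71 against 10.67. Their ratios were smaller in ΔM, but at 3 h they had 988 against 698, 1454 against 1233 and 1980 against 1814 FPKM. Ifi27 went the other way, with 15.76 against 25.07 FPKM at 0 h. Whether the whole list starts higher in ΔM was not tested. Single genes differed in size. Cxcl1 had a log2 ratio of 7.31 in WT and 8.38 in ΔM, and Ifnb1 of 4.72 and 7.49, from about the same level at 0 h. Mmp14, a membrane-bound protease, had ratios of 4.09 and 1.52, with 2.37 FPKM at 0 h and 56.5 FPKM at 3 h in WT and 42.4 and 124 FPKM in ΔM. Ccl12 had ratios of 4.52 and 2.52, with 7.15 and 185 FPKM in WT and 46.9 and 274 FPKM in ΔM. Irg1 had ratios of 7.29 and 4.92, with 16.8 and 2782 FPKM in WT and 75.6 and 2314 FPKM in ΔM. For these 3 genes the ΔM level was already higher without LPS. Whether such differences exceed the spread between replicates was not tested.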

How the data were processed

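RNA was sequenced from 42 libraries, 3 in each of 14 groups, with the SENSE mRNA-Seq kit, which keeps the strand, as 100-base single-end reads. The submitters' processing notes name GSNAP, DESeq2 and the mouse build mm10, and the paper's methods name Mix2 for transcript quantification. The deposited FPKM are 1 value per gene and group, and how the authors pooled the replicates is not given in the sources used here. The authors fitted a line to log2 FPKM over 0, 45 and 90 min of actinomycin D, deposited its slope as decay rate and -1 divided by it as half-life, and wrote stable from 180 min. Beside the FPKM in the deposited table, log2 fold changes and FDR values (adjusted p-values) of ΔM over WT fill 6 columns, which hold the authors' own comparisons and were not used.

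From the pooled FPKM the log2 ratio of FPKM + 1 was computed with Python 3.11.15, pandas 2.3.3 and numpy 2.4.6 for genes with at least 1 FPKM at 0 or 3 h, and plots were drawn with matplotlib 3.10.9. With 1 pooled value per group there is no SD, no test and no known depth. Half-lives were taken as -1 divided by the deposited slope for all genes. RefSeq symbols or synonyms gave positions for 11301 of the included genes, and 71 included genes share their symbol with another.

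Genes named are Zfp36, the 12 highest and 12 lowest log2 ratios with at least 10 FPKM, the 12 shortest-lived and the 8 most abundant long-lived induced mRNAs, the 8 shortest-lived repressed mRNAs, up to 6 members of each list with the largest changes and the member furthest against the list's median, and the genes nearest each limit, apart from a few that are not reported here. Markers, list members named for a known role (Il10, Ifnb1, Fos, Jun, Egr1, Tlr4, Hmox1, Tgfb1, Osm, Ccl6, Pf4 and others) and genes named for a contrast over time were added after their values were seen. The members and the lists were chosen with earlier results of these data known. Alternatives changed the pseudocount (0.1 or 10), the FPKM limit (5 or none), the fold limit, the centring and the slopes.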

Additional observations from a re-analysis of the deposited data

How the results depend on the processing

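Of 64 values computed under alternatives 33 stayed within their tolerance and 31 did not. The tolerance was 1.5 times for a count and the 95% binomial interval over genes for a share or a median slope. That interval narrows with the number of genes and measures no spread between replicates. Some of the 33 could not have moved. With 1 added, no gene under 1 FPKM at both times can reach a fold limit, so dropping the FPKM limit changed none of these values. For induced mRNAs, a limit of 5 FPKM at 3 h selected the same genes as 5 FPKM at 0 or 3 h. No median slope changed sign, but induced genes outnumbered repressed ones when ratios were centred, with 10 added and with a log2 ratio of 2 as the limit, and WT slopes of LPS 6 h turned the order of the unstable shares of induced and repressed mRNAs. Counts of genes followed the pseudocount. With 0.1 added, 2401 genes were repressed, of which 39.9% were unstable with a median slope of -0.23 log2 units per h. With 10 added, 468 genes were induced and 286 repressed, of which 53.2% were unstable with a median slope of -0.35, and 74.5% of the repressed were also repressed in ΔM. At 5 FPKM or more, 86.8% of induced and 72.0% of repressed genes had the same call in ΔM. With a log2 ratio of 2 as the limit, 347 genes were induced and 175 repressed, 38.4% and 71.3% of them were unstable, the median slope of the repressed was -0.49, and 79.5% and 77.7% had the same call in ΔM. Centred on the median of all genes, 622 were repressed, 57.1% of them unstable with a median slope of -0.40, and 73.8% had the same call in ΔM. With WT slopes of LPS 6 h, 39.3% of induced (median slope -0.21) and 35.0% of repressed mRNAs (-0.19) were unstable. For repressed mRNAs these values were 38.3% and -0.23 with ΔM slopes at LPS 3 h, 35.6% and -0.22 at 5 FPKM or more at 3 h, and 40.4% and -0.24 with slopes centred on their median. The cause was not tested. Of 128 list counts under 2 alternatives 102 stayed within 1.5 times and 26 moved. No paired analysis was possible because the columns are pooled and carry no replicate number, and for the same reason no replicate could be left out.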

Other observations

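Gene families, grouped by the start of their symbols after the values were seen, differed in decay and in response. Of 200 included Zfp genes, which mostly encode zinc finger proteins, 25 were repressed (12.5%, the background of all genes) and 4 induced, and 147 of 191 with a rate (77.0%) were unstable at LPS 3 h against 22.3% of all. The Zbtb transcription factors had 30 of 35 unstable, with 10 repressed and 2 induced, and the Klf factors 9 of 10 unstable, with 4 repressed and 3 induced. By contrast none of 49 proteasome (Psm) and none of 21 Ndufa genes of respiratory complex I was unstable, and 1 gene of each family was repressed. Of 8 Slfn genes, a family known as interferon-inducible, 7 were induced with a median log2 ratio of 1.77, and 4 were unstable. Of 39 Trim genes, which encode ubiquitin ligases of which many act in antiviral defence, 10 were induced and 10 repressed.

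For the lists that follow, the background was 7.38% of all genes induced and 12.5% repressed, and the repressed shares of the glycolysis, survival and cytokine receptor lists lay at or near it. Counted from the median the background was 10.7% and 5.25%, with 3 of the survival and 2 of the cytokine receptor genes repressed. Of 31 glycolysis and hypoxia genes 4 were induced and 4 repressed (6 and 1 when counted from the median). Pfkfb3, a regulator of glycolytic flux, had 8.95, 78.2 and 383 FPKM at 0, 3 and 6 h, and Vegfa, the vascular growth factor gene, 14.8, 2.27 and 3.52 FPKM. In the survival and death list 9 of 32 were induced and 4 repressed. Of 31 lysosomal genes 1 was induced and 2 repressed, and 1 was unstable. Of 24 cytokine receptors 8 were induced and 3 repressed, of 17 genes of prostaglandin and leukotriene synthesis 3 were induced, of 11 complement genes 2 were induced, of 35 macrophage identity genes 8 were induced and 7 repressed, and of 7 noncoding RNAs that include small nucleolar RNA hosts 2 were repressed (1 when counted from the median).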
